A study of Mus musculus with 11 samples.

Results

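H3K27me3, the histone mark that Polycomb repressive complexes place at silent genes, was compared between the lateral ganglionic eminence (LGE) and the cortex (CTX) of mouse embryos at the 5′ ends of protein-coding genes. For each of 21755 genes, the percentage of a window reaching 2 kb to either side of the annotated 5′ end that lay under peaks was computed in each region. Members were selected on these percentages: a gene was taken when LGE and CTX were 40 or more percentage points apart, and was left out when the medial and the caudal ganglionic eminence (MGE and CGE) both also lay 40 or more points from CTX in that direction. Before genes were left out, LGE was 40 or more points above CTX in 0.441% of the genes and CTX above LGE in 0.593%. In all, 131 genes met the rule, 0.602% of the genes, of which 55 (0.253%) were higher in LGE and 76 (0.349%) were higher in CTX, a balance that reversed to 112 and 50 in lists of equal covered bases. A further 94 genes were left out, 41 with LGE above CTX and 53 with CTX above LGE. These values chose the genes, so every percentage of LGE and CTX below is a description and carries no test.

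The series holds 11 samples of wild-type C57BL/6J embryos profiled by CUT&Tag, in which an antibody directs a transposase to nucleosomes that carry the mark so that the DNA around them is cut and tagged. LGE, CTX and CGE each have 3 samples, of which 2 carry the same replicate number and may be runs of 1 library, and MGE has 2, all without a treatment or a transgene, and nothing in the labels ties a sample to an animal. Tissue for these libraries was taken at E12.5 (embryonic day) according to the study's text, while the labels' dissection protocol names E12.5 and E14.5 and the somatosensory cortex and no label gives an age per sample. That protocol also speaks of mixing nuclei from the regions in equal numbers, whereas each sample is labelled with 1 region, and the lists are taken here as labelled. Samples of a region were merged before peaks were called, so a region is 1 list and no value has a replicate error or a count behind it. The LGE list held 16851 peaks over 26.4 Mb, the CTX list 18785 over 31.2 Mb, the MGE list 15384 over 24.5 Mb and the CGE list 19196 over 32.9 Mb. The CTX list thus reached further than the LGE list, and values from lists of equal covered bases are given beside the results this touches.

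The border between LGE and CTX is the boundary between the ventral telencephalon (subpallium) and the dorsal telencephalon (pallium). Progenitors of the LGE produce the GABAergic projection neurons of the striatum and interneurons of the olfactory bulb, whereas cortical progenitors produce glutamatergic projection neurons. Transcription factors such as the Dlx and Gsx genes on the ventral side and *Emx1*, *Pax6* and *Neurog2* on the dorsal side hold these programs apart. Polycomb complexes keep many such developmental regulators silent where they are not used, most often at gene starts rich in CpG dinucleotides.

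**Figure D1:**
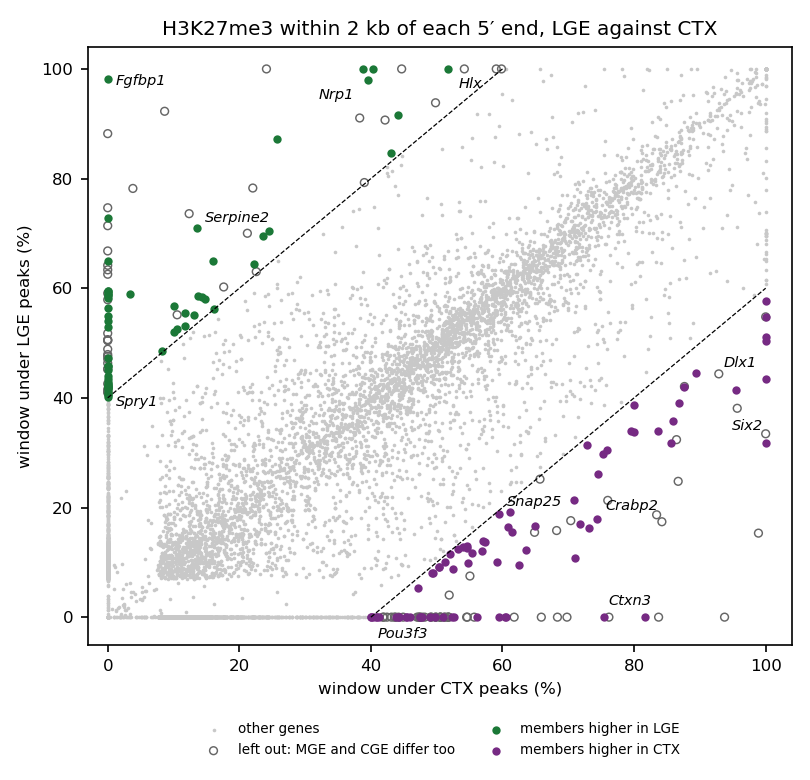
Percentage of the window 2 kb either side of the 5′ end under CTX peaks (horizontal axis) and under LGE peaks (vertical axis), 1 point per protein-coding gene; dashed lines mark 40 points apart, green and purple points are the 55 and 76 genes taken, and open circles are the 94 genes left out. Most genes with any coverage lie along the diagonal, and 31 of the green and 26 of the purple points sit on an axis, with no covered base in the other list.

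The sequence at these 5′ ends is shown for 5 genes on which the results below turn, from both directions. Each is the 250 bases upstream of the 5′ end, read in the direction of transcription from the RefSeq copy of GRCm38 (mm10), with CpG dinucleotides in capitals. *Fgfbp1* (chr5:43981780-43982029, minus strand), *Nrp1* (chr8:128358354-128358603, plus strand) and *Spry1* (chr3:37639697-37639946, plus strand) were higher in LGE. *Dlx1* (chr2:71527863-71528112, plus strand) and *Pou3f3* (chr1:42695518-42695767, plus strand) were higher in CTX.
Fgfbp1: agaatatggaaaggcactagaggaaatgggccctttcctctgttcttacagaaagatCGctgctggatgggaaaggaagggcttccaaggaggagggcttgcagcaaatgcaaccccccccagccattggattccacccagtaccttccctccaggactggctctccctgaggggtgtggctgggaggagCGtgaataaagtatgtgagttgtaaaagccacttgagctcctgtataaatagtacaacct
Nrp1: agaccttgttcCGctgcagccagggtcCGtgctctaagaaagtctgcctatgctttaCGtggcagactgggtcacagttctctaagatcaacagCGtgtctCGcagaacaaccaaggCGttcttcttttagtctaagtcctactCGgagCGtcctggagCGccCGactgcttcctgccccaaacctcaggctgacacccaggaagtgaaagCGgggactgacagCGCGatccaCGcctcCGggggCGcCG
Spry1: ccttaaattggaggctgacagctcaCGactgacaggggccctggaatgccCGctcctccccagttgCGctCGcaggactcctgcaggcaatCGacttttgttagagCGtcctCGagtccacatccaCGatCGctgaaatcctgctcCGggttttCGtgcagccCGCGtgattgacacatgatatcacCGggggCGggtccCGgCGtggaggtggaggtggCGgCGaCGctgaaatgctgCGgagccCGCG
Dlx1: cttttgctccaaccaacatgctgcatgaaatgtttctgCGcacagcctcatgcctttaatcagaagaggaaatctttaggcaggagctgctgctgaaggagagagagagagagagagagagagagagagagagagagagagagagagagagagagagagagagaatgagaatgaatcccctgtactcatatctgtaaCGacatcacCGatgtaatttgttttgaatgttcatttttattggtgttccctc
Pou3f3: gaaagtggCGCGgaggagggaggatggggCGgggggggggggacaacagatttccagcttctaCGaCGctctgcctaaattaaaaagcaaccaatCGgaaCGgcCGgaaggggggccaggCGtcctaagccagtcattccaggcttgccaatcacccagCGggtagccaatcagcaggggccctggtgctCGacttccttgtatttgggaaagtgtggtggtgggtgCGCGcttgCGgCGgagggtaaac
The stretches differ in CpG, with 2 in *Fgfbp1*, 3 in *Dlx1*, 15 in *Pou3f3*, 17 in *Nrp1* and 23 in *Spry1*. *Fgfbp1* and *Dlx1*, the pair poorest in CpG here, were among the genes furthest apart in their directions, but so was *Nrp1* with 17. The stretches shown therefore do not tie few CpG to a large difference, and such a relation was not tested.

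Both labels were first held against genes that define the regions. Over this window, *Emx1*, a homeobox gene of the cortex, was covered over 87.1% in CTX and 98.9% in LGE, and 100% in MGE and CGE. *Gad2*, which makes GABA in ventral neurons, was covered over 100% in CTX and 60.8% in LGE, with 64.8% in MGE and 58.9% in CGE. *Ebf1*, a factor of striatal neurons, was covered over 49.8% in CTX and 14.4% in LGE, with 51.4% in MGE and 19% in CGE. Between LGE and CTX, these genes, with *Dlx1* below, had the larger coverage in the region whose identity they do not mark. The other eminences did not all go with LGE, as *Ebf1* had 51.4% in MGE and *Dlx1* had 100% in CGE. Use of the genes was not measured. Other regulators differed by little: *Gsx2*, which specifies LGE progenitors, had 90.6% in CTX and 90.3% in LGE. *Eomes*, a gene of cortical intermediate progenitors, had 100% in all 4 lists, and *Neurod6* and *Gad1* had no covered base in any. *Sp8*, a factor of the dorsal LGE, went the other way, with 47.6% in LGE and 0% in CTX, and was left out because MGE (57%) and CGE (47.7%) were also high. The marker genes thus differ in the direction of the labels for some genes and not for others.

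Under the whole rule, which leaves genes out, 1 of 153 entries in 5 identity lists was taken (0.654%), against 0.602% of all genes. That share rests on *Dlx1* alone and does not show how identity genes compare with genes at large. Of 32 measured genes of cortical and pallial identity, 0 met the rule, as did 0 of 14 genes of the pallial-subpallial border. Likewise 0 of 39 of the cortical hem and dorsal midline and 0 of 30 of the MGE and hedgehog pathway met it. Of 38 genes of LGE and striatal identity, *Dlx1* alone met it. Others passed 40 points, all with LGE higher, and were left out by the condition on MGE and CGE. They were *Dmrta2* in the cortical list (1 of 32), *Six3* and *Sp8* in the LGE list (2 of 38) and *Tfap2c* in the border list (1 of 14). In the hem list *Barhl1*, *Zic2* and *Zic5* were left out (3 of 39), and in the MGE list *Gli3* (1 of 30). Before genes were left out, LGE stood that far above CTX in 0.441% of all genes. The share in each of these lists was higher, though each rests on 1 to 3 genes. A covered base in LGE or CTX was found in 28 of 32 cortical and 32 of 38 LGE genes, against 35.7% of all genes. The median difference, LGE minus CTX, was 1.3 points in the cortical list and -0.175 points in the LGE list, against 0 over all genes. Of the genes taken, 49 of the 55 and 65 of the 76 were in none of the 21 lists of regulators and families examined. The lists hold a small part of all genes and the same share over all genes was not computed. These counts therefore do not set the genes taken apart from other genes.

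Among the genes higher in LGE, the median distance between the lists was 45.7 points, with a range from 40.1 to 98.3. Their median coverage was 56.2% in LGE and 0% in CTX. No CTX base lay in the window of 31 of the 55, 17 had some but under 25%, and 7 had 25% or more. Of the 31, only 4 had a CTX peak within 10 kb of the 5′ end, and the median distance to the nearest CTX peak was 51685 bases. The largest group of these genes was thus marked in LGE and lay in stretches free of CTX peaks.

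**Figure D2:**
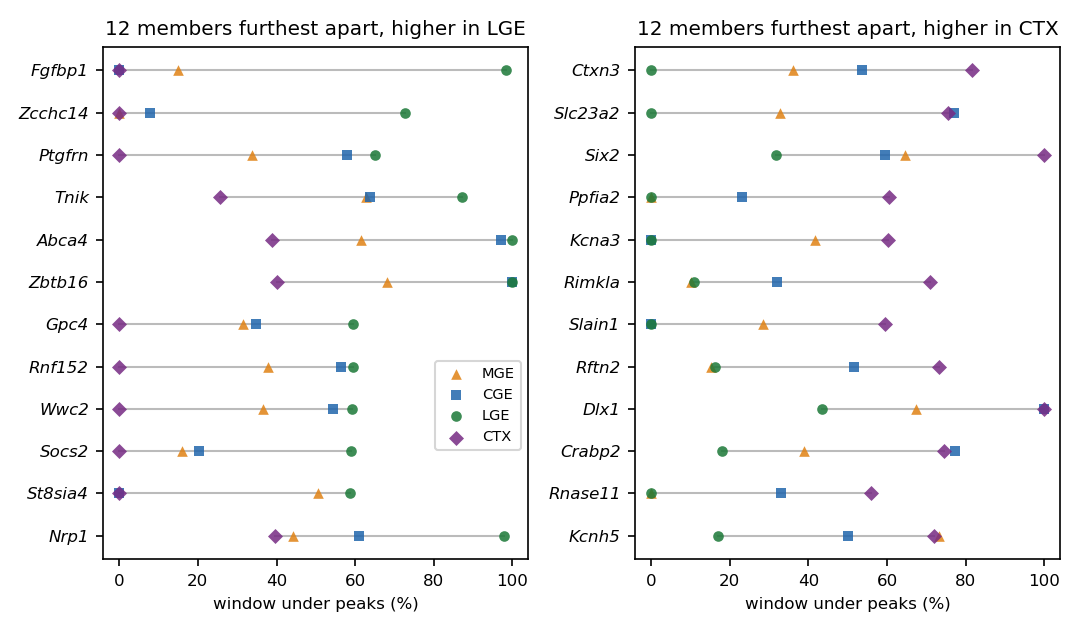
Percentage of the window under peaks (horizontal axis) in each of the 4 lists for the 12 genes furthest apart in each direction, with LGE as circles, CTX as diamonds, CGE as squares and MGE as triangles; grey lines join LGE and CTX. On the left, 8 of the 12 CTX diamonds stand at 0, and on the right, 6 of the 12 LGE circles do.

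The gene furthest apart was *Fgfbp1*, a secreted carrier that releases fibroblast growth factors from the matrix. Its window was covered over 98.3% in LGE, 15.0% in MGE and 0% in CGE and CTX. The LGE peak was 4406 bases wide but weak, with an authors' −log10 q of 1.93, which put it in the weakest 20% of the LGE peaks. The contrast is wide in bases and rests on a peak close to the calling limit, and it did not remain at 40 points with a q-value under 0.001.

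*Zcchc14* followed, with 72.7% in LGE, 0% in CTX and MGE, and 7.85% in CGE. Its LGE peak was weaker still, with a −log10 q of 1.34, and it stayed 40 points apart in 1 of the 4 other versions of the lists (a q-value under 0.001, neighbouring peaks joined, equal numbers of peaks, and equal covered bases). *Ptgfrn*, a membrane partner of the prostaglandin F2 alpha receptor, had 65.0% in LGE, 57.8% in CGE, 33.8% in MGE and 0% in CTX, and stayed apart in 2 of the 4. The 3 genes furthest apart were therefore not among the most stable.

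*Nrp1* encodes neuropilin-1, a receptor for class 3 semaphorins that steers axons and migrating interneurons. It was covered over 98.0% in LGE, 61.1% in CGE, 44.2% in MGE and 39.6% in CTX, and stayed 40 points apart in all 4 versions. In LGE a single peak of 4979 bases ran from 1918 bases upstream to 3060 bases downstream of the 5′ end, whereas the CTX peak covered from 2522 to 416 bases upstream. MGE and CGE had a peak on each side with a gap between them. The upstream part was thus marked in all regions, and the stretch across the 5′ end into the first bases of the gene was under a peak in LGE and not in CTX. *Nrp1* was the only one of 75 axon guidance genes taken in either direction (1.33%, against 0.602% of all genes). Of these 75, 60 had a covered base in LGE or CTX, against 35.7% of all genes.

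*Serpine2*, an inhibitor of extracellular proteases, showed the same form. Coverage was 71.0% in LGE, 13.7% in CGE, 13.5% in CTX and 11.8% in MGE. All lists shared a peak within the gene that began 1528 bases downstream in MGE, 1452 in CGE and 1460 in CTX, and in LGE this peak reached across the 5′ end to 841 bases upstream. The 3 other lists lay within 2 points of each other, so LGE stood alone here, and the contrast remained in all 4 versions of the lists. *Tnik*, a kinase that acts on Wnt target genes, had 87.2% in LGE, 63.8% in CGE, 62.8% in MGE and 25.7% in CTX, where the peak ended 33 bases before the 5′ end.

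**Figure D3:**
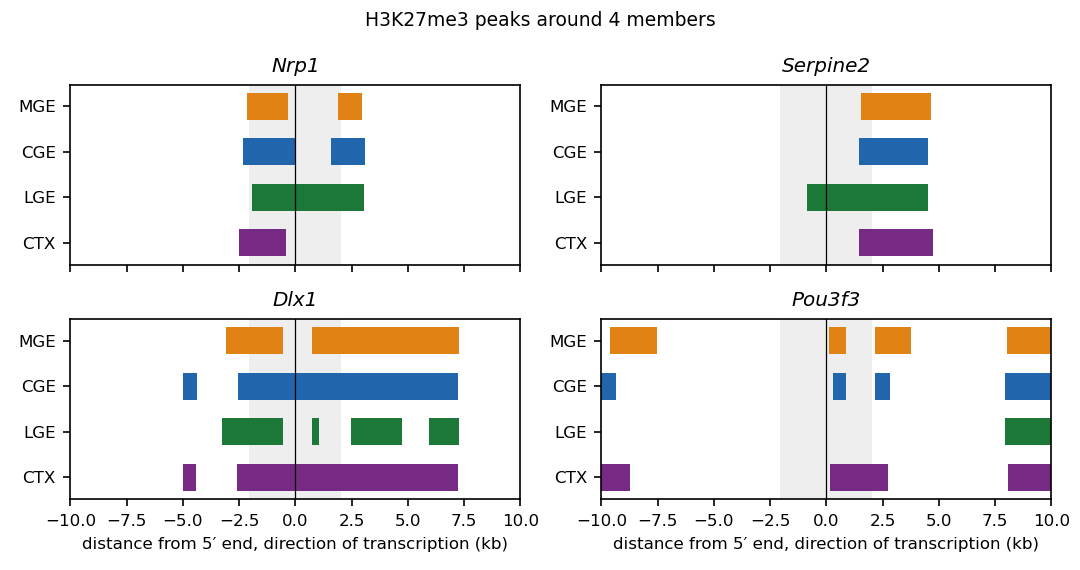
Positions of H3K27me3 peaks in the 4 lists (rows) around *Nrp1*, *Serpine2*, *Dlx1* and *Pou3f3*, as distance from the 5′ end in kb in the direction of transcription; the grey band is the window of 2 kb either side and bars are cut at the edges of the plot. In LGE an unbroken peak runs across the 5′ ends of *Nrp1* and *Serpine2* into the gene, where the other lists have a gap or begin downstream, and over *Dlx1* the peak of 9829 bases in CTX is replaced in LGE by separate peaks that leave the 5′ end free.

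Over all genes higher in LGE, those without a CTX peak included, the 5′ end itself lay under an LGE peak in 46 of 55 and under a CTX peak in 6. Over the genes higher in CTX it lay under a CTX peak in 66 of 76 and under an LGE peak in 17. The difference was larger in the 2 kb downstream of the 5′ end in 37 of the genes higher in LGE and larger upstream in 18, with a median of 73.9 points downstream and 22.4 points upstream. In the genes higher in CTX it was larger downstream in 39 and upstream in 37, with medians of 59.1 and 44.6 points.

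*Socs2*, which restrains growth hormone and cytokine signalling, was covered over 58.9% in LGE, 20.3% in CGE, 15.9% in MGE and 0% in CTX. *Spry1*, an antagonist of receptor tyrosine kinases, had 41.6% in LGE, 24.95% in CGE, 5.30% in MGE and 0% in CTX. It was the only gene taken from a list of 44 genes for FGF and EGF signalling (2.27%, against 0.602% of all genes). Of these 44, 37 had a covered base in LGE or CTX, against 35.7% of all genes. *Gpc4*, a glypican on the X chromosome that binds growth factors at the cell surface, had 59.5% in LGE, 34.7% in CGE, 31.5% in MGE and 0% in CTX. In *Socs2* and *Spry1* the contrast remained in all 4 versions of the lists, and in *Gpc4* in 3.

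*Rnf152*, a ubiquitin ligase of lysosomes, had 59.5% in LGE, 56.5% in CGE, 37.8% in MGE and 0% in CTX. *Wwc2*, a relative of the Hippo pathway regulator Kibra, had 59.2% in LGE, 54.5% in CGE, 36.6% in MGE and 0% in CTX. Both remained in all 4 versions, and in both the order of the lists was LGE, CGE, MGE and CTX. *St8sia4*, which adds polysialic acid to the adhesion molecule NCAM, had 58.8% in LGE, 50.5% in MGE and 0% in CGE and CTX, and so paired LGE with MGE. It remained in 2 of the 4.

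Some transcription factors were among the genes higher in LGE. *Hlx*, a homeobox factor, was covered over 100% in LGE, 53.0% in MGE, 51.7% in CTX and 50.5% in CGE. *Zbtb16*, a zinc finger repressor, had 100% in LGE and CGE, 68.2% in MGE and 40.3% in CTX. *Hopx*, a small homeodomain protein that does not bind DNA and marks a class of radial glia, had 53.0% in LGE, 33.3% in MGE, 27.9% in CGE and 0% in CTX. *Hlx* and *Six5* were the 2 genes higher in LGE among 202 homeobox factors, of which 182 had a covered base in LGE or CTX. *Foxk1*, with 42.3% in LGE, 0% in CTX and MGE and 19.7% in CGE, was the only one among 44 forkhead factors (2.27%). Of these 44, 35 had a covered base. Over all genes, 0.253% were higher in LGE and 35.7% had a covered base. *Abca4*, the lipid transporter of photoreceptors, had 100% in LGE, 97.1% in CGE, 61.4% in MGE and 38.8% in CTX. *Hopx* and *Abca4* remained in all 4 versions, *Hlx* and *Zbtb16* in 3, *Six5* in 2 and *Foxk1* in 1.

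Several receptors and ligands were also among them, picked out here after their values were seen. *Notch2*, a receptor that maintains progenitors, had 42.2% in LGE, 37.4% in CGE, 13.3% in MGE and 0% in CTX. *Znrf3*, a ubiquitin ligase that removes Wnt receptors, had 65.1% in LGE, 66.7% in CGE, 37.9% in MGE and 16.03% in CTX. *Pdgfc* and *Pdgfrb*, a ligand and a receptor of platelet-derived growth factor signalling, had 42.5% and 52.1% in LGE, 0% and 10% in CTX, and 75.4% and 54.2% in CGE. In each of these genes CGE lay close to LGE or above it. *Sulf2*, which trims heparan sulfate outside the cell, reached 99.5% in CGE, with 70.5% in LGE, 24.5% in CTX and 21.1% in MGE. *Znrf3* and *Sulf2* remained in all 4 versions of the lists, *Notch2* and *Pdgfc* in 3 and *Pdgfrb* in 2. The LGE peaks of *Notch2* and *Pdgfrb* were weak, with a −log10 q of 1.76 and 1.79. With a q-value under 0.001, *Notch2*, *Pdgfc* and *Pdgfrb* had a difference of 0 points.

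Among the genes higher in CTX, the median distance was 45.5 points, with a range from 40.0 to 81.7. Their median coverage was 58.3% in CTX and 11.6% in LGE. No LGE base lay in the window of 26 of the 76, 30 had some but under 25%, and 20 had 25% or more. Of the 26, 9 had an LGE peak within 10 kb of the 5′ end, and the median distance to the nearest was 29874.5 bases. A larger share of these genes than of those higher in LGE thus kept part of the mark in the lower list. The 76 genes stand at 71 separate places, because 5 pairs of neighbours share a peak: *Lemd1* and *AC124108.1*, *Polr2h* and *Clcn2*, *Uqcrh* and *Lrrc41*, *Abhd8* and *Mrpl34*, and *Klhl18* and *Kif9*.

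*Dlx1*, a homeobox factor that drives GABAergic differentiation in the GEs, was covered over 100% in CTX and CGE, 67.5% in MGE and 43.4% in LGE. In CTX a single peak of 9829 bases ran from 2577 bases upstream to 7251 bases downstream of the 5′ end, with an authors' fold enrichment of 1.58 and a −log10 q of 25.2. In LGE the stretch held 4 peaks, which ended 565 bases upstream of the 5′ end and resumed 738 bases downstream. LGE peaks were therefore called on both sides of the *Dlx1* 5′ end and none was called over it. MGE had the same gap between 565 bases upstream and 738 bases downstream, and CGE had an unbroken peak like that of CTX. The contrast did not remain at 40 points when peaks less than 3 kb apart were joined, since joining fills the gap. Of the neighbouring *Dlx2*, 41.7% was covered in CTX and 41.4% in LGE.

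Broad peaks in CTX that were broken up in LGE were seen at other developmental regulators. Of the 71 separate CTX peaks over these genes, 24 had no overlapping LGE peak, 36 had 1 and 11 had 2 or more, up to the 4 at *Dlx1*. Of the 55 LGE peaks over the genes higher in LGE, 31 had no overlapping CTX peak, 21 had 1 and 3 had 2. *Six2*, a homeobox factor, had 100% in CTX, 64.6% in MGE, 59.6% in CGE and 31.9% in LGE, and 67.2% of its CTX peak of 8321 bases was under 2 LGE peaks. *Uncx*, another homeobox factor, had 100% in CTX and CGE, 56.5% in MGE and 54.7% in LGE, and 75.9% of its CTX peak of 7582 bases was under 2 LGE peaks. *Skor1*, a corepressor chosen here for its width of 10591 bases in CTX, had 100% in CTX against 51.2% in LGE, with 66.3% in CGE and 63.3% in MGE. In these genes LGE peaks lay over the bulk of the CTX peak and the difference lay in gaps between called LGE peaks. With peaks less than 3 kb apart joined, the difference was 0 points in *Six2*, *Uncx* and *Skor1*. Each remained in 3 of the 4 versions of the lists.

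POU-domain factors were the other homeobox genes taken. *Pou3f3*, which acts in progenitors and upper-layer neurons of the cortex, was covered over 45.5% in CTX, 19.3% in MGE, 14.4% in CGE and 0% in LGE. The CTX peak ran from 182 to 2729 bases downstream of the 5′ end, and the nearest LGE peak began 7933 bases downstream. *Pou2f1*, a factor present in most tissues, had 52.3% in CTX, 14.6% in MGE, 8.38% in CGE and 0% in LGE. Both remained in all 4 versions of the lists. In total, 5 of 202 homeobox factors were higher in CTX (*Dlx1*, *Pou2f1*, *Pou3f3*, *Six2* and *Uncx*), and the 7 in both directions make 3.47% of the list. The rule took 0.602% of all genes, of which far fewer carry any mark; 182 of the 202 had a covered base in LGE or CTX, against 35.7% of all genes, and the median difference of the list was 0. No gene was taken from 70 bHLH factors, 63 genes of the Wnt pathway or 66 of the BMP and TGF-beta pathway.

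Of 20 genes of the retinoic acid pathway, 15 had a covered base in LGE or CTX, against 35.7% of all genes. *Crabp2*, which binds retinoic acid in the cell, was the only one of the 20 taken (5%, against 0.602% of all genes). It had 77.3% in CGE, 74.4% in CTX, 38.9% in MGE and 17.95% in LGE. Its CTX peak was weak, with a −log10 q of 2.49, and it stayed 40 points apart in 1 of the 4 versions of the lists. With equal covered bases LGE was the higher by 7.43 points.

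Ion channels were taken on the CTX side. Of 177 ion channel genes, 4 were higher in CTX (2.26%, against 0.349% of all genes) and 0 in LGE (against 0.253%), and 122 had a covered base in either list. *Kcna3*, a voltage-gated potassium channel, had 60.4% in CTX, 41.8% in MGE and 0% in CGE and LGE. *Kcnh5*, a potassium channel of the ether-à-go-go family, had 73.3% in MGE, 71.8% in CTX, 49.98% in CGE and 16.9% in LGE. *Kcnn2*, a calcium-activated potassium channel, had 54.6% in CTX, 15.0% in MGE, 13.0% in LGE and 0% in CGE. *Clcn2*, a chloride channel, had 47.4% in CTX, 0% in LGE and MGE and 11.5% in CGE, but shares its peak with *Polr2h*, a subunit of RNA polymerases. *Kcnh5* and *Kcnn2* remained in all 4 versions of the lists, *Clcn2* in 2 and *Kcna3* in 1. The median difference over the channel genes was 0, and -1.80 points over those with a covered base, against -1.45 points over all genes with one.

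*Ppfia2* encodes liprin-alpha-2, a scaffold of presynaptic active zones. It was covered over 60.6% in CTX, 23.2% in CGE and 0% in LGE and MGE, and no LGE peak lay within 544847 bases of its 5′ end. *Snap25*, a SNARE protein of vesicle fusion, had 59.5% in CTX against 18.7% in LGE, with 54.3% in CGE and 50.8% in MGE. *Snap25* and the next genes were picked after their values were seen. *Nova2*, a neuronal splicing factor, had 55.4% in CTX against 11.7% in LGE, with 39.1% in CGE and 16.6% in MGE. *Scrt2*, a zinc finger repressor of newborn neurons, had 72.8% in CTX, 67.2% in MGE, 31.5% in LGE and 30.5% in CGE. These 4 genes remained in all 4 versions of the lists. Of 128 neurotransmitter receptors, 92 had a covered base in LGE or CTX, against 35.7% of all genes. *Adrb3*, a beta-adrenergic receptor, was the only one of the 128 taken (0.781%, against 0.602% of all genes). It had 66.9% in CGE, 60.8% in CTX, 58.9% in MGE and 16.4% in LGE. With a q-value under 0.001, LGE was the higher by 16.4 points.

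The gene furthest apart on the CTX side was *Ctxn3*, which encodes cortexin-3, a small neuronal membrane protein. It had 81.7% in CTX against 0% in LGE, with 53.6% in CGE and 36.0% in MGE. The nearest LGE peak was 542709 bases from its 5′ end. *Slc23a2*, a transporter of vitamin C, had 77.0% in CGE, 75.4% in CTX, 32.8% in MGE and 0% in LGE. *Rimkla*, an enzyme that makes the neuropeptide N-acetylaspartylglutamate, had 71.0% in CTX, 32.1% in CGE, 10.9% in LGE and 10.2% in MGE. *Ctxn3* and *Rimkla* remained in all 4 versions of the lists, and *Slc23a2* in 1. *Rftn2*, a protein of lipid rafts, had 73.2% in CTX, 51.6% in CGE, 16.2% in LGE and 15.2% in MGE. *Ldhb*, a subunit of lactate dehydrogenase, had 62.6% in CTX and CGE, 13.6% in MGE and 9.43% in LGE. Both also remained in all 4. *Slain1*, a microtubule-associated protein, had 59.5% in CTX, 28.6% in MGE and 0% in CGE and LGE, and remained in 1. *Rnase11* and *Lyzl6* had 56.1% and 52.7% in CTX and 0% in LGE. On the LGE side *Olfr464*, the only one of 1420 olfactory and vomeronasal receptors taken, had 56.4% in LGE and 0% in CTX.

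MGE and CGE took different positions beside the genes of each direction. Where LGE was high, CGE also stood 40 or more points above CTX in 27 of 55 genes and MGE in 4, while neither did in 24. Where LGE was low, MGE also stood 40 or more points below CTX in 32 of 76 genes and CGE in 15, while neither did in 29. Over all genes, CGE stood that far above CTX in 1.12% and below it in 0.524%, and MGE above it in 0.588% and below it in 0.929%, and the rule removed every gene in which both did. The CGE list covers the most bases and the MGE list the fewest, which runs the same way as this pattern. In lists of equal covered bases, an alternative added after seeing the data, 43 of the 55 genes stayed 40 points apart, of which CGE alone went with LGE in 17, MGE alone in 2 and both in 6. Of the 76, 44 stayed apart, of which MGE alone went with LGE in 10, CGE alone in 14 and both in 11. With a q-value under 0.001, CGE alone went with LGE in 10, MGE alone in 1 and both in 6 of the 28 left on the LGE side. On the CTX side MGE alone did in 18, CGE alone in 2 and both in 15 of the 41 left. At genes high in LGE, CGE alone thus went with LGE more often than MGE alone with each of these lists. At genes low in LGE, the lead of MGE alone over CGE alone was not seen with equal covered bases. MGE still went with LGE there in 10 genes alone and in 11 together with CGE. Shares over all genes in these other lists are not given, and the rule had removed genes with both.

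The peaks that set these genes apart were of middling strength. Ranked by q-value within its list, from 0 for the weakest to 100 for the strongest, the widest peak over the window had a median rank of 48.9 in LGE for the genes higher there and 47.6 in CTX for the genes higher there. At the 2739 genes with 40% or more in both lists, the median rank was 86.0 in LGE and 87.3 in CTX. In width they differed less, with medians of 2368 bases for the genes higher in LGE and 2546 for those higher in CTX, against 2642 in LGE and 2765 in CTX at the 2739 genes. Of the 55 genes higher in LGE, 15 had this peak in the weakest 20% of the list and 5 in the strongest 20%, and of the 76 higher in CTX, 9 and 8. The rule did not use the strength of a peak, and these ranks come from the same lists and carry no test.

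**Figure D4:**
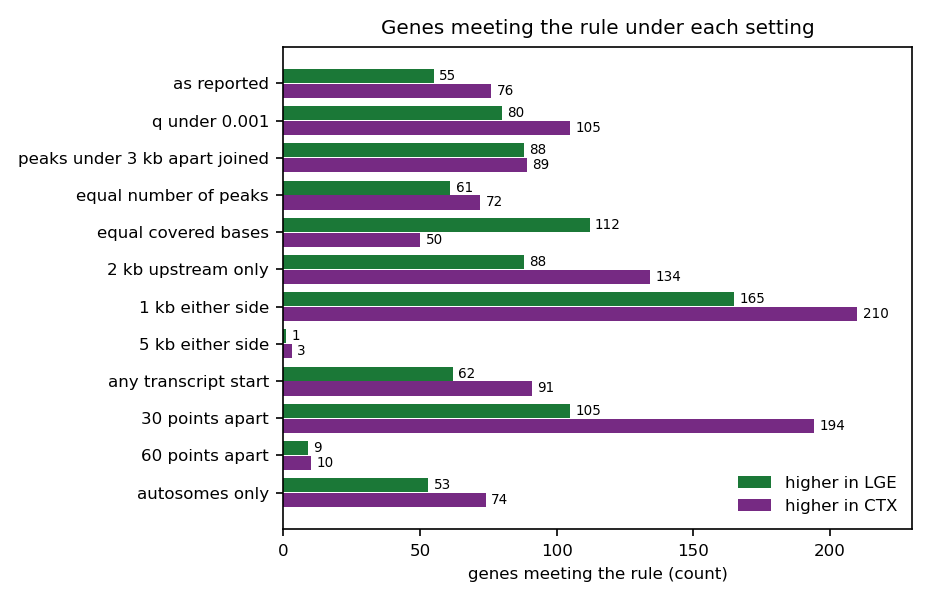
Number of genes that met the rule (horizontal axis) in each direction as reported and under each of 11 other settings of the peak lists, the window, the threshold or the chromosomes. The CTX bar is the longer as reported (76 against 55) and the LGE bar is the longer with equal covered bases (112 against 50).

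The excess of genes on the CTX side changed to the LGE side when the lists were given the same reach. Then 112 genes were higher in LGE and 50 in CTX. Of the genes as reported, 26 of the 55 and 31 of the 76 stayed 40 points apart in all 4 versions of the lists. Just inside it were *Six5* (40.2 points), *Tmtc4* (40.2) and *Rassf4* (40.1) on the LGE side and *Tspan2* (40.3), *Abhd8* and *Mrpl34* (both 40.0) on the CTX side. Just outside the threshold of 40 points were *Mamld1* (39.9), *Rcn1* (39.6) and *Pax6* (39.6) on the LGE side, and *Adam23* (39.9), *Gnb4* (39.9) and *Samd14* (39.8) on the CTX side. Of these 6, *Rcn1*, *Pax6* and *Gnb4* also fell under the condition on MGE and CGE and would have been left out past the threshold. *Pax6*, a factor of cortical progenitors at the border, had 82.0% in LGE and 42.5% in CTX, and 100% in MGE and 86.6% in CGE.

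**Figure D5:**
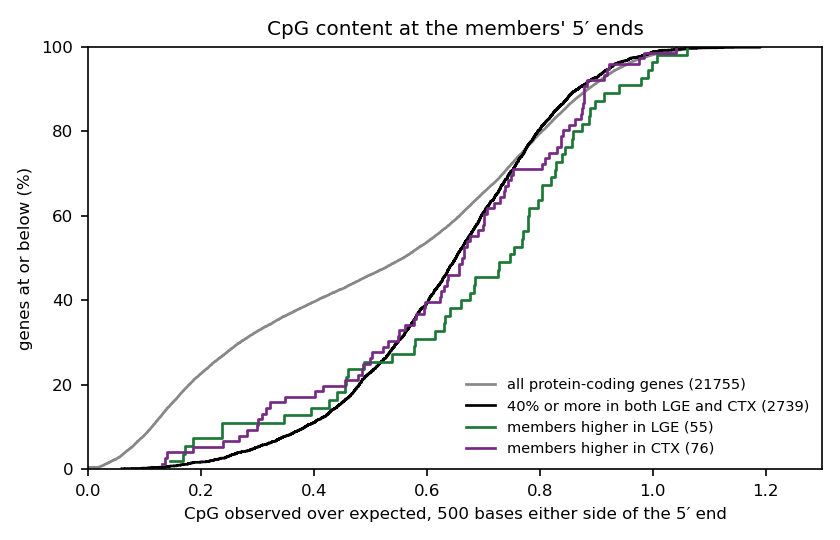
Cumulative percentage of genes (vertical axis) by the ratio of observed to expected CpG in the 500 bases either side of the 5′ end (horizontal axis), for all genes, genes with 40% or more in both lists, and the genes taken in each direction. The curve of the genes higher in LGE has the highest median, 0.748, and meets that of genes marked in both lists near the lower quartile (0.513 and 0.516), and the curve of the genes higher in CTX runs close to that of genes marked in both lists (0.664 and 0.652).

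Sequence around the 5′ end was not used by the rule. In the 500 bases to either side, the ratio of observed to expected CpG had a median of 0.748 in the genes higher in LGE (quartiles 0.513 and 0.842) and 0.664 in those higher in CTX (0.497 and 0.820). It was 0.652 in genes with 40% or more in both lists and 0.558 over all genes. A ratio of 0.6 or more was found in 38 of 55 genes (69.1%) higher in LGE and 46 of 76 (60.5%) higher in CTX, against 60.8% of the genes marked in both and 46.3% of all genes. The quartiles overlap widely, and the genes of both directions resemble other marked genes in this measure more than the average gene. The median GC content was 61.5% and 59.7%, against 60.7% in genes marked in both and 54.9% over all.

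Short motifs were searched in the 250 bases upstream, each of which reads the same on both strands. TAATTA, the core that many homeodomain proteins bind, was present in 2 of 55 genes higher in LGE (3.64%) and 2 of 76 higher in CTX (2.63%), against 4.91% of all genes. CAGCTG, an E-box, was present in 9 (16.4%) and 6 (7.89%), against 12.1%. CACGTG, another E-box, was present in 4 (7.27%) and 5 (6.58%), against 6.58%. None of these shares rests on more than 9 genes.

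The genes higher in LGE were long, with a median of 62685 bases from end to end, against 26054 bases for those higher in CTX, 26989 for genes with 40% or more in both lists and 17414 for all genes. Little of these genes carried the mark beyond their starts. The median share of the gene under peaks was 4.22% in LGE for the genes higher there, and 5.96% in CTX for the genes higher there.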

How the data were processed

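H3K27me3 CUT&Tag libraries of 4 regions were examined as 1 peak list per region. Per the labels and the study's methods, the authors aligned reads to GRCm38 (mm10) with Bowtie2, removed duplicates with Picard, merged the samples of a region with SAMtools and called broad peaks with MACS, whose version and control are not given in the sources used here. The deposited lists hold, for each peak, a score that follows the −log10 q and was not used here, a fold enrichment over local background, a −log10 p-value (not used) and a −log10 q-value, which is under 0.1 for every peak. The region label of each sample set its group. A merged list weighs each sample by its reads, and a list from more reads can hold more and weaker peaks. The reads per library in the study's methods, summed by region, rank CGE, CTX, LGE and MGE, the order of their covered bases. Precision per peak cannot be given, as the lists hold no counts.

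Peaks on chromosomes 1 to 19 and X were intersected with windows around the 5′ ends of GENCODE M21 (Ensembl 96) genes in Python 3.11.15 (numpy 2.4.6, pandas 2.3.3, matplotlib 3.10.9), and the percentage under peaks was checked on simulated peaks. No statistical test was run. Sequence came from the RefSeq copy of GRCm38, and coordinates count from 1. Alternatives were 4 versions of the lists (q-value under 0.001, peaks under 3 kb apart joined, the strongest 15384 peaks, the strongest peaks over 24.5 Mb), 4 other windows, thresholds of 30 and 60 points, and autosomes alone.

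The genes taken and the 21 gene lists were chosen with earlier results of these data known. Genes were named if in an identity or retinoic acid list, among the 12 furthest apart or the 8 furthest apart that remained in all 4 versions in each direction, the 3 nearest the threshold on each side, in a family list, or in a fixed set of region genes. Other genes were picked after their values were seen, as stated where they appear.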

Additional observations from a re-analysis of the deposited data

How the results depend on the processing

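The counts of 55 genes higher in LGE, 76 higher in CTX and 94 left out moved by over 1.5 times with most windows and thresholds. With the 2 kb upstream alone they were 88, 134 and 163, within 1 kb 165, 210 and 343, and within 5 kb 1, 3 and 6. At 30 points they were 105, 194 and 250, and at 60 points 9, 10 and 15. With equal covered bases they were 112, 50 and 170. Joining peaks gave 88 higher in LGE and 143 left out, and a q-value under 0.001 gave 177 left out. The 5′ end of any transcript, equal numbers of peaks and autosomes alone moved none of the 3 by that much.

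The same genes were only partly taken again. With equal covered bases 37 of the 55 and 33 of the 76 met the whole rule, with a q-value under 0.001 22 and 26, within 1 kb 34 and 40, and with the upstream 2 kb alone 14 and 27. Of 713 values of the 65 genes named by rule under the 11 settings, 544 kept their direction and side of 40 points, 141 fell below it, 23 rose past it and 5 changed sign. In LGE minus CTX these were 7.43 points for *Crabp2* with equal covered bases, 16.4 for *Adrb3* both with equal covered bases and with a q-value under 0.001, and, upstream alone, -1.25 for *Rassf4* and -3.9 for *Six5*. The causes were not tested.

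No paired analysis was possible because the samples of a region were merged before peaks were called, which also leaves no sample to leave out in turn. Spread between animals and depth per peak are unknown.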

Other observations

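Of the genes in the 5 identity lists, 7 were between 30 and 40 points higher in LGE and 9 were that much higher in CTX. Higher in LGE were *Pax6*, *Dmrt3*, *Foxp1*, *Lef1*, *Ebf2*, *Gli2* and *Boc*, and higher in CTX were *Gad2*, *Gas1*, *Tshz2*, *Ebf1*, *Fezf1*, *Pbx3*, *Shh*, *Neurod1* and *Sema5b*. In the list of LGE and striatal identity 4 were higher in CTX (*Gad2*, *Tshz2*, *Ebf1* and *Pbx3*) and 1 in LGE (*Foxp1*), and in the list of cortical and pallial identity 2 were higher in LGE (*Pax6* and *Dmrt3*) and 2 in CTX (*Fezf1* and *Neurod1*). These counts carry no test.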
